A study of Homo sapiens with 7 samples.

Results

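Transcripts of the cytosolic heat shock chaperones and of HSF1, the transcription factor that controls them, were followed through 10 genes on the arrays of bafilomycin A1-treated HCT116 cells. The members were every non-control spot whose gene name in the scanner files is HSF1, HSPA1A, HSPA1B, HSPA8, HSP90AA1, HSP90AB1, HSPB1, HSPH1, DNAJB1 or BAG3. These symbols account for 10 of the 36337 gene names on the array, for 20 of its 50599 probes and for 38 spots. HCT116 is a near-diploid line of human colon carcinoma, used here as a derivative that carries the histone H2B fused to GFP. 4 replicates were exposed to 10 nM bafilomycin A1, an inhibitor of the vacuolar proton pump that blocks the last step of autophagy, for 30 h, and each was measured on 1 single-colour array. The labels give 10% serum and the methods 5%. The methods state for all statistically evaluated experiments that there were at least 3 independent biological replicates. Neither they nor the labels say how the 4 bafilomycin A1 replicates were cultured. The 3 untreated samples of the same line were not analysed here, so no value below is an effect of bafilomycin A1, and every comparison is between replicates of the treated group, between probes or between genes. The question the study put to this treatment was whether its response resembles that of aneuploid cells, and for the chaperones these arrays give the level in the treated cells and its error.

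Heat shock proteins keep other proteins folded. In unstressed cells HSF1 is held inactive by chaperones, and when unfolded proteins accumulate it is released, forms trimers and binds repeated short elements in the promoters of its target genes. Members of the same family are used in different ways: HSPA8 and HSP90AB1 are the constitutive cytosolic HSP70 and HSP90, made in most cells at all times, whereas HSPA1A, HSPA1B and HSP90AA1 are the forms induced by heat and other stress. HSPB1 is a small heat shock protein, HSPH1 the cytosolic HSP110 that exchanges nucleotide on HSP70, DNAJB1 a J-domain protein that delivers substrates to HSP70, and BAG3 a co-chaperone that links HSP70 to selective autophagy. These last 4 are inducible too. HSP90AA1 and HSPB1 are also made at a substantial level in many unstressed cells, so a second grouping with both counted as constitutive was computed.

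Signals are given as the log2 background-subtracted Cy3 intensity minus the median of the array, called the normalized log2 signal. The median was taken over the 81.2% to 84.0% of probes with a signal above 0, and it lies 0.99 to 1.22 log2 units above the median over all probes, so a level of 0 is not that of the median probe of the array. Where a gene has several probes the median over them is its level. Probes bind their targets with different strength, so levels of different genes or probes are not set in order, and only deviations from a gene's own mean over the 4 arrays are compared. A gene was called detected when 1 or more of its probes exceeded the background clearly, by the flag of the scanner software, on each of the 4 arrays. Probes that had a value on all 4 arrays are called complete probes. The cells carried the marks of an epithelial line: all 8 epithelial markers tested were detected, with KRT19 between 11.76 and 11.93 and EPCAM between 8.70 and 9.04. Of 5 leukocyte markers 3 were detected, CD3E at -0.34, ITGAM at -0.61 and PTPRC by 1 of its 5 probes, while of 6 fibroblast and endothelial markers COL1A2, PDGFRB and PECAM1 were above background on no array and COL1A1, CDH5 and VWF were detected. Of the 4 arrays replicate 3 stood apart, with 2249 spots marked as outliers by the scanner software against 514 to 725 on the others.

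9 of the 10 heat shock genes were detected, against 52.5% of all gene names on the array. The exception was HSPA1A, which was well above background on 3 arrays. When every probe of a gene had to be detected, 6 of the 10 passed, and the share of all gene names under that rule was not computed. In 8 of the 9, the range over the replicates exceeded 1.4-fold, against 46.4% of all detected genes, where 1.4-fold is the threshold the study uses for a changed gene. The SD between replicates ran from 0.19 for HSPA1A to 0.56 for HSP90AA1, with a median over the 10 genes of 0.26 (n = 4), beside a median of 0.21 over all detected genes. At the level of single probes the contrast with the array was smaller: 8 of the 16 heat shock probes detected on all arrays spanned more than 1.4-fold, against 43.5% of all detected probes, and their median SD was 0.23, against 0.20. With only complete probes HSP90AA1 and HSP90AB1 no longer passed, as described below, and 6 of the 9 genes spanned more than 1.4-fold, against 42.9% of detected genes. Without replicate 3 the count was 2 of 9, against 21.9% of the genes detected on the other 3 arrays, and after normexp and quantile normalization it was again 2 of 9, against 14.1%. In 2 of the 9, HSP90AA1 and DNAJB1, 1 replicate stood apart from the rest by Dixon's ratio of the gap to the range, against 8.48% of detected genes. No test of the members against other genes was run, because genes are not replicates.

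**Figure D1:**
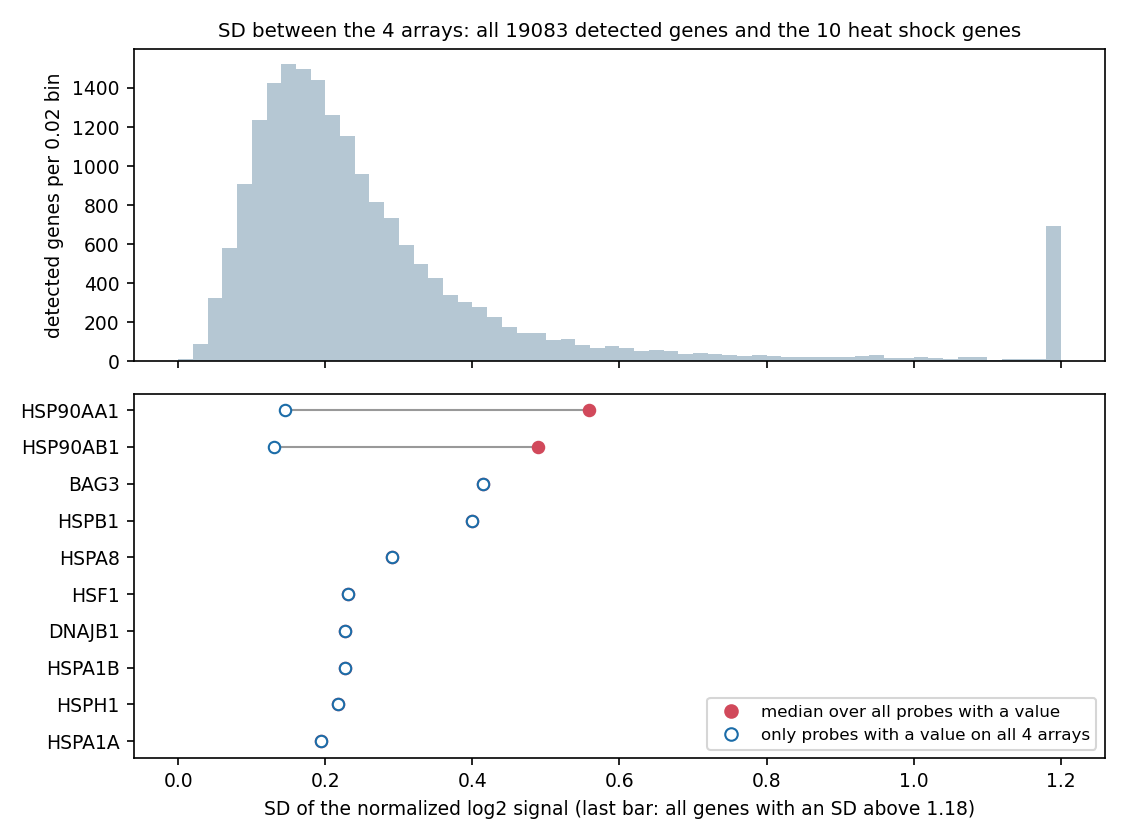
The upper panel counts the 19083 detected genes by the SD of their normalized log2 signal between the 4 bafilomycin A1 arrays, in bins of 0.02, and the lower panel places the 10 heat shock genes on the same axis. The filled points of HSP90AA1 (0.56) and HSP90AB1 (0.49) lie far to the right of their open points (0.14 and 0.13), which use only complete probes, while the other 8 genes hold the same SD under both rules.

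HSF1 gave a level of 8.93, 8.87, 9.20 and 8.64 on replicates 1 to 4, a mean of 8.91 ± 0.23 (SD, n = 4). Replicate 3 was the highest and replicate 4 the lowest, 1.47-fold apart. The gene has 3 probes on chromosome 8 of GRCh37, spread over 4900 bases, and they disagreed. The 2 probes at the end toward the 3′ side, which overlap, averaged 9.32 ± 0.17 and 8.91 ± 0.23, with background-subtracted signals of 39573 to 53067 and 25347 to 41342. The third, at 145533478 to 145533537, averaged 0.23 ± 0.61, with signals of 116, 130, 51.9 and 58.6 on replicates 1 to 4. It was well above background on every array but ran the other way: replicate 3 was its lowest and replicates 1 and 2 its highest. The gap between the brightest and the dimmest probe was 9.09 on the log2 scale. Since the gene level is the median of 3 probes, it was that of the probe averaging 8.91, and the value of the dim one did not set it. The brightest probe gave 9.18, 9.24, 9.56 and 9.28. It too was highest on replicate 3, but it was lowest on replicate 1 and spanned only 1.30-fold. With the mean over the 3 probes in its place, the deviation of HSF1 on replicate 3 was -0.04 instead of 0.29, and replicate 2 was the highest.

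Such gaps were common on this array. Of the 6676 detected genes with more than 1 probe, 1256 (18.8%) held probes more than 6 log2 units apart, and among the 6 heat shock genes with several probes these were HSF1, HSPA8 and HSPB1. The gap was 4.02 for HSP90AA1, 2.20 for HSPH1 and 2.11 for HSP90AB1. HSPA1A, HSPA1B, DNAJB1 and BAG3 each have a single probe, and for these 4 genes no second probe could show whether the value depends on the place probed.

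**Figure D2:**
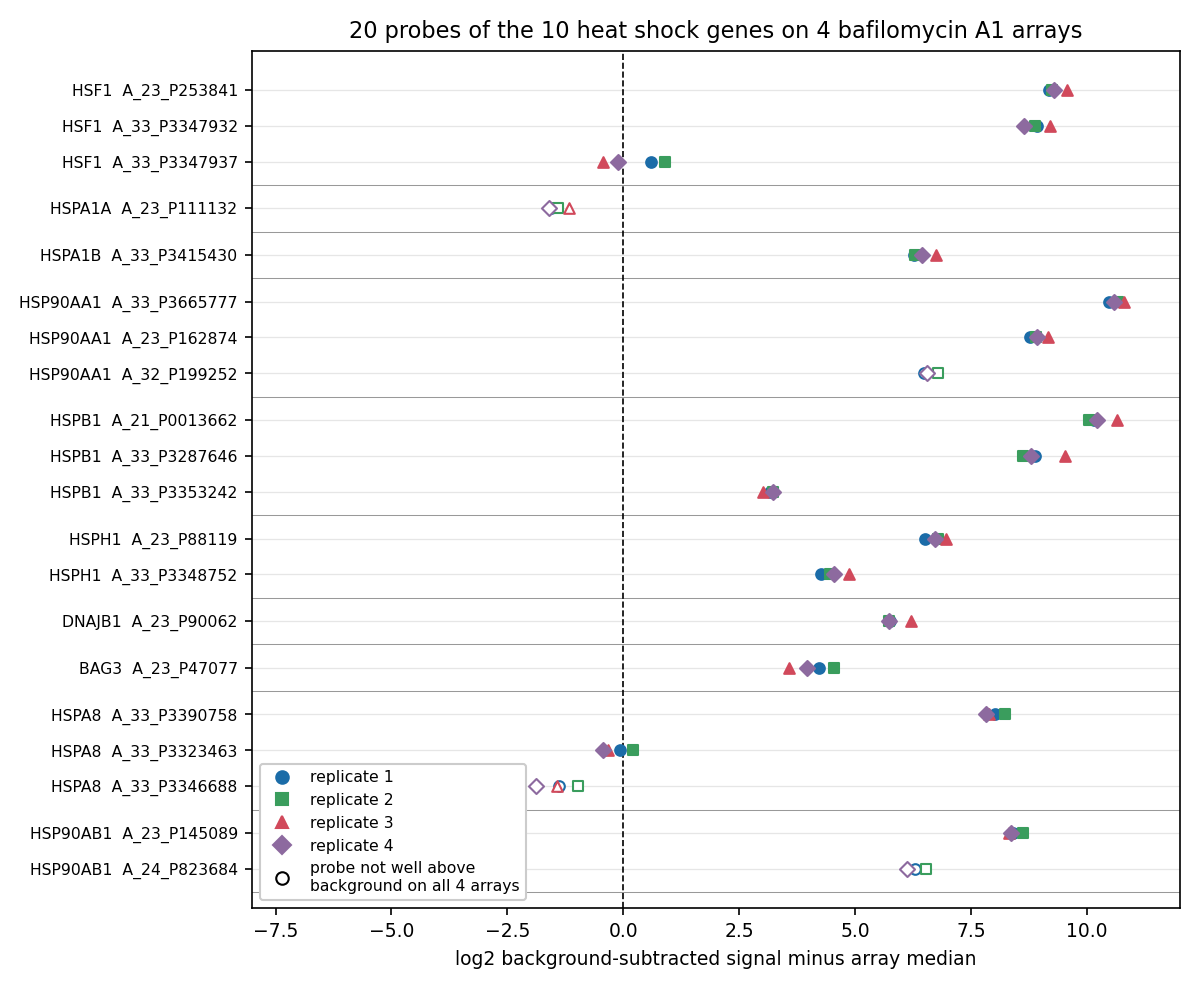
Each row is 1 of the 20 probes of the 10 heat shock genes, the horizontal axis is the log2 background-subtracted signal minus the array median, and each symbol is 1 replicate, open where the probe was not well above background on all 4 arrays. HSF1, HSPB1 and HSPA8 each hold probes more than 6 log2 units apart, and the HSPA1A probe lies below the array median (dashed line) at -1.60 to -1.17.

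The inducible HSP70 genes HSPA1A and HSPA1B encode nearly the same protein, lie next to each other on chromosome 6 and were read by 1 probe each. The first 30 bases of both probes are shown because the values of this pair rest on these probes being distinct. Each probe has 60 bases, and the longest run shared by the whole probes is 7 bases.
HSPA1A probe, chr6:31785491-31785550 (GRCh37, plus strand): gagcttcaagactttgcatttcctagtatt
HSPA1B probe, chr6:31797870-31797929 (GRCh37, plus strand): gtttcgttccctttaaatgaatcaacactg
HSPA1B lay at 6.27, 6.28, 6.75 and 6.44 on replicates 1 to 4, a mean of 6.43 ± 0.23 (SD, n = 4), from signals of 5927, 5452, 7574 and 5507. Replicate 3 was the highest, only just past 1.4-fold above the lowest. HSPA1A lay at -1.56, -1.41, -1.17 and -1.60, a mean of -1.44 ± 0.19 (SD, n = 4), from signals of 26.2, 26.3, 31.2 and 20.9. With a single probe each, a weaker probe and a rarer transcript cannot be told apart.

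The HSPA1A probe is printed at 10 places on the array, which gives the error of the spot beside that of the replicate. It was well above background at 8, 9, 8 and 3 of its 10 spots on replicates 1 to 4, and the software's weaker flag for a positive and significant signal was set at all 10 spots on every array. Within an array the log2 values of its single spots had a mean SD of 0.37, which gives the mean over the spots a standard error of 0.12, while the 4 array means had an SD of 0.18. For the 10-spot probe of HSP90AA1 the SD of single spots was 0.12, the standard error of the array mean 0.04 and the SD of the array means 0.16. Over the 673 probes printed 10 times and detected on all arrays, the medians of these 3 quantities were 0.18, 0.057 and 0.20. In both heat shock genes the replicates thus lay further apart than the standard error from the spots, by less in the dim HSPA1A.

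**Figure D3:**
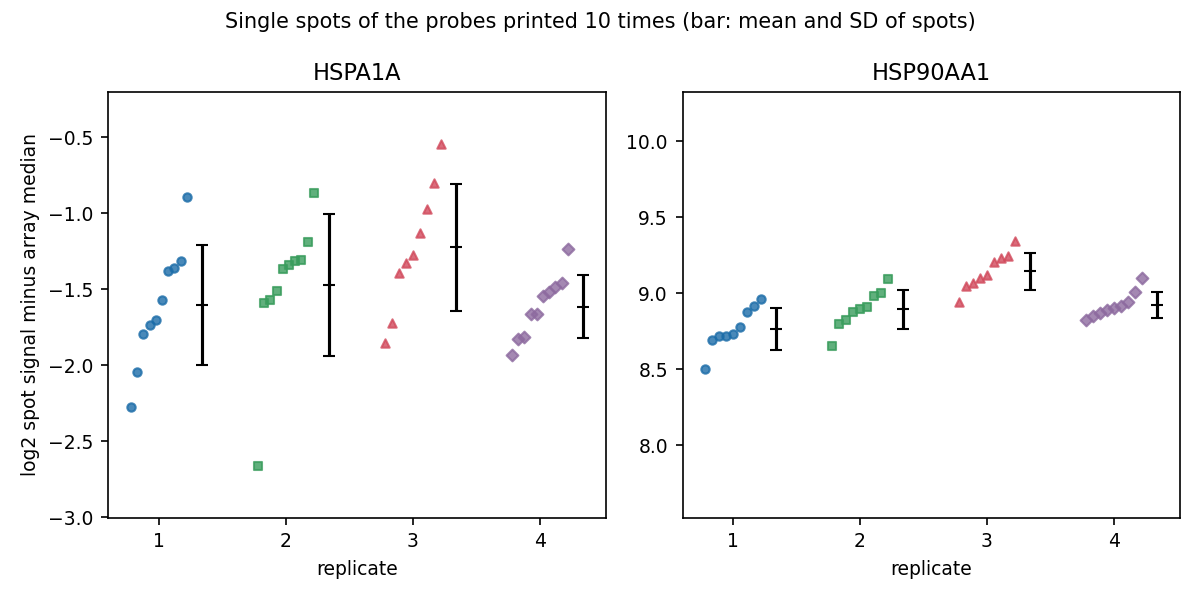
Each symbol is the log2 signal of 1 spot minus the array median, for the probes of HSPA1A and HSP90AA1 that are printed 10 times, with the mean and SD of the spots as a black bar beside each of the 4 replicates and with equal axis lengths in both panels. The spots of HSPA1A spread from -2.66 to -0.54 and overlap between replicates. Those of HSP90AA1 stay between 8.50 and 9.35 and overlap as well, with the mean of replicate 3 the highest.

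HSPA8, the constitutive HSP70, showed how much a gene level can turn on the probe. Its level was -0.08, 0.21, -0.33 and -0.45 on replicates 1 to 4, a mean of -0.16 ± 0.29 (SD, n = 4), so that one of the most abundant chaperones of human cells appeared near the array median. The gene has 3 probes within 569 bases of chromosome 11. The files assign 1 of them to the RefSeq mRNA, and this probe gave 8.02, 8.22, 7.89 and 7.83, a mean of 7.99 ± 0.17 (SD, n = 4), from signals of 20008, 20930, 16663 and 14420. The others are assigned to Ensembl transcripts only and averaged -0.16 and -1.42, the latter well above background on 3 arrays. The median over the 3 probes was therefore one of the dim ones. On the minus strand, the nearer Ensembl probe ends 1 base before the RefSeq probe begins. The whole RefSeq probe and the last 30 bases of that neighbour are shown because the signals were 14420 to 20930 on one side of that base and 46.5 to 81.0 on the other.
HSPA8 Ensembl probe, last 30 bases, chr11:122929539-122929598 (GRCh37, minus strand): ttgtagtaatttgttttatttcctaccaag
HSPA8 RefSeq probe, chr11:122929478-122929537 (GRCh37, minus strand): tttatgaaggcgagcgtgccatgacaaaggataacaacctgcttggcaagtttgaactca
All 3 probes were highest on replicate 2 and lowest on replicate 4. With RefSeq-assigned probes alone the level of HSPA8 was 7.99, and the replicates lay 1.31-fold apart in place of 1.58-fold.

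HSP90AA1, the inducible cytosolic HSP90, gave a level of 8.77, 8.90, 9.98 and 8.93, a mean of 9.14 ± 0.56 (SD, n = 4). Replicate 3 stood well above the other 3, which lay close together. The size of this difference came from how the level is made. The gene has 3 probes on the minus strand of chromosome 14 (GRCh37), at 102547395 to 102547454, 102549453 to 102549512 and 102550163 to 102550222. The dimmest of these, the third, gave 6.48, 6.78 and 6.56 on replicates 1, 2 and 4, but on replicate 3 its only spot, in the first row of the array, was marked as an outlier for its local background and dropped out. The level of replicate 3 was then the mean of the 2 brighter probes and that of the others the middle probe. With outlier spots kept, the levels were 8.82, 8.94, 9.19 and 8.97, and with only complete probes 9.63, 9.78, 9.98 and 9.75, so the span fell from 2.30-fold to 1.30-fold and 1.27-fold. Both bright probes were highest on replicate 3 and lowest on replicate 1, by 1.25-fold and 1.30-fold.

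The constitutive HSP90, HSP90AB1, met the same loss. Its level was 7.35, 7.58, 8.32 and 7.24, a mean of 7.62 ± 0.49 (SD, n = 4), with replicate 3 the highest. It has 2 probes on the plus strand of chromosome 6 (GRCh37). The brighter, whose coordinates in the files run from 44219983 to 44220819, gave 8.41, 8.61, 8.32 and 8.36, with replicate 3 the lowest. The dimmer, at 44219211 to 44219270, gave 6.28, 6.54 and 6.12 on replicates 1, 2 and 4, and its spot on replicate 3, in the second row of the array, was also marked as an outlier for its background. With that spot kept it read 5.80, the lowest of the 4, and the level of HSP90AB1 on replicate 3 was 7.06 in place of 8.32. The direction of replicate 3 for HSP90AB1 thus reversed with the rule for marked spots: its deviation was 0.70 with them left out, -0.24 with them kept and -0.10 with only complete probes. Of the 2249 marked spots on replicate 3, 890 lay in the first 10 of the 384 rows of the array, beside 3, 73 and 4 on replicates 1, 2 and 4.

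HSPB1, the small heat shock protein, had a level of 8.88, 8.62, 9.54 and 8.79, a mean of 8.96 ± 0.40 (SD, n = 4). Replicate 3 was the highest and replicate 2 the lowest, 1.88-fold apart. Of its 3 probes, the 2 toward the 3′ end, at chr7:75933451-75933510 and chr7:75933550-75933609 (GRCh37), moved together, with 10.65 and 9.54 on replicate 3 and 10.03 and 8.62 on replicate 2. The third averaged 3.16 ± 0.10 and was lowest on replicate 3. Its sequence is printed because of where it lies: all of its 60 bases were found in the RefSeq promoter window of HSPB1, from position -66 to -7 relative to the annotated start of transcription in GRCh38.p14, while the files assign it to the HSPB1 mRNA.
HSPB1 upstream probe, chr7:75931924-75931983 (GRCh37, plus strand): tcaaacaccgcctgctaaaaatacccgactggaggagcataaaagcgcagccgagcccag
HSF1 has no window in that table, and among the probes of the other 9 genes no second one was found whole in a promoter window of its gene. It was well above background on all 4 arrays, with signals of 569 to 692, beside 27641 to 112676 for the other probes of HSPB1.

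HSPH1, the HSP110, lay at 5.38, 5.62, 5.91 and 5.63, a mean of 5.64 ± 0.22 (SD, n = 4), and DNAJB1, the J-domain protein, at 5.76, 5.73, 6.20 and 5.74, a mean of 5.86 ± 0.23 (SD, n = 4). Both probes of HSPH1, on the minus strand of chromosome 13, were highest on replicate 3 and lowest on replicate 1. In DNAJB1, replicates 1, 2 and 4 lay within 0.03 of each other, and replicate 3 stood 0.44 above the nearest of them. The whole span of DNAJB1 was 1.38-fold, so it was the only detected heat shock gene under 1.4-fold.

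BAG3 went the other way. Its level was 4.23, 4.54, 3.56 and 3.95, a mean of 4.07 ± 0.41 (SD, n = 4), with replicate 2 the highest and replicate 3 the lowest, 1.97-fold apart. No other inducible gene was lowest on replicate 3. The sequence of its single probe is shown because this contrast rests on it.
BAG3 probe, chr10:121436388-121436447 (GRCh37, plus strand): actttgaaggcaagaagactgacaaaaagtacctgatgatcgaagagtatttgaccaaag
Under all 10 ways of processing tried with the 4 arrays, the reported one included, BAG3 was lowest on replicate 3, with a deviation of -0.70 to -0.48. It was highest on replicate 2, with 0.38 to 0.47. Rules that drop or average probes cannot change a gene with a single probe and repeat the reported value. On replicate 3 the processed signal gave -0.55, quantile normalization -0.59, removal of the GC trend -0.70 and another centre -0.48. HSPB1 was highest on replicate 3 under all 10, with 0.27 to 0.61, and here too the rules that drop probes repeat the reported value.

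Averaged over the 6 detected inducible genes, the deviation from each gene's mean was -0.13, -0.07, 0.31 and -0.10 on replicates 1 to 4, and over the constitutive HSPA8 and HSP90AB1 it was -0.10, 0.16, 0.27 and -0.33. Both classes were above their mean on replicate 3. With only complete probes, and so without the change of probes in HSP90AA1, the inducible mean was -0.10, -0.03, 0.20 and -0.07. The difference, inducible minus constitutive, was -0.04, -0.23, 0.04 and 0.23, an SD over the arrays of 0.19, and it held no constant sign. The agreement of the classes on replicate 3 came from HSP90AB1. With only complete probes the difference on replicate 3 was 0.33, and with outlier spots kept 0.41, as HSPA8 and HSP90AB1 were then both below their mean. With HSP90AA1 and HSPB1 counted as constitutive the difference on replicate 3 was -0.38 at the reported levels, which hold the change of probes in HSP90AA1 and HSP90AB1. That grouping was not computed with only complete probes. With 4 arrays of 1 group and a constitutive class of 2 genes, no test of the classes was made.

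**Figure D4:**
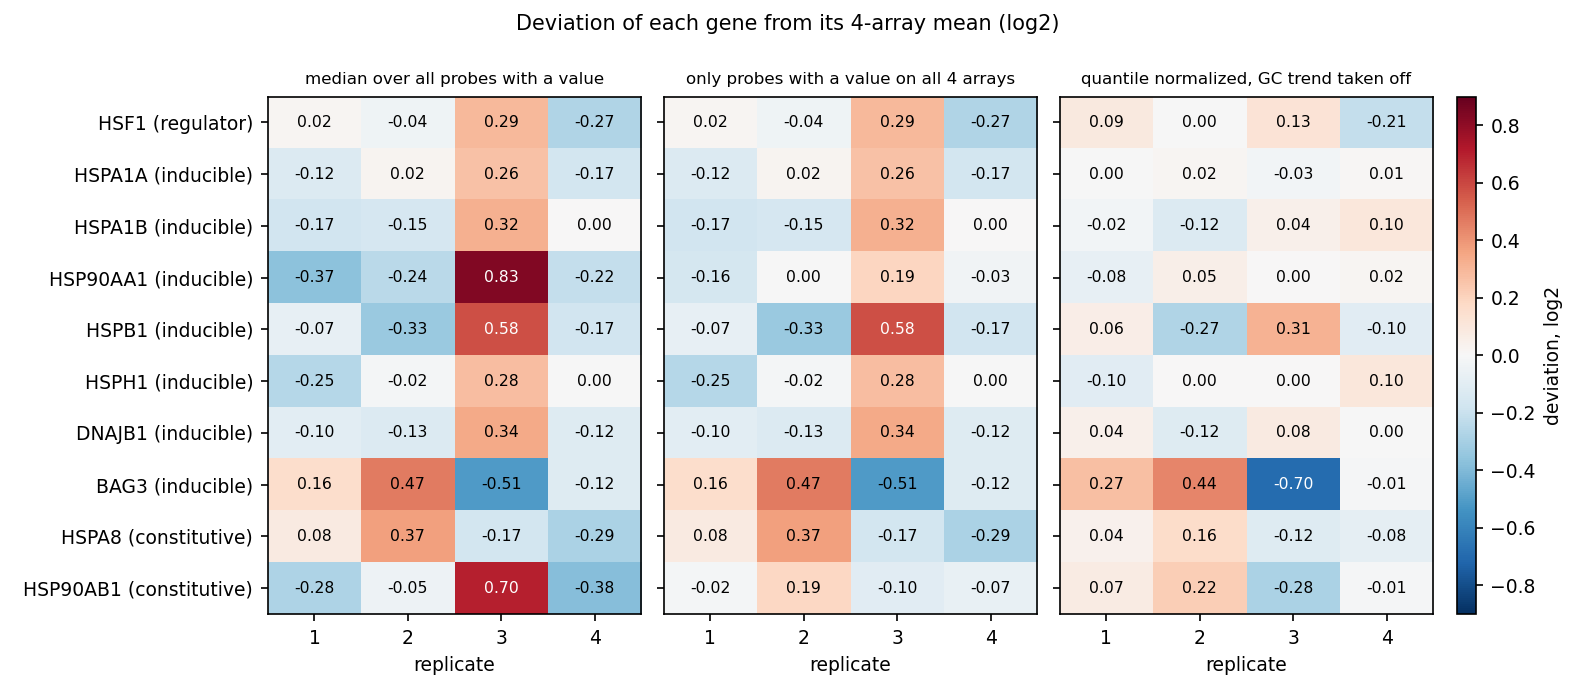
Deviation of each heat shock gene from its own mean over the 4 arrays, on the log2 scale, under 3 ways of processing (as reported, with only complete probes, and after quantile normalization with the GC trend taken off), with red above and blue below the mean. HSP90AB1 on replicate 3 goes from 0.70 to -0.10 and -0.28, while BAG3 stays the lowest on that replicate, at -0.51, -0.51 and -0.70, and HSPB1 is the highest in the latter 2 panels, at 0.58 and 0.31.

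Replicate 3 was high for much of the array, and the heat shock genes shared in this. Of the 16 detected heat shock probes 10 were highest on replicate 3, against 50.4% of all 24633 detected probes. All detected genes deviated by 0.07 on replicate 3, and the brightest of 5 equal classes of them, to which 7 of the 9 detected heat shock genes belong, by 0.16. The GC content of the probe moved with the deviation as well: it averaged 0.31 on replicate 3 for detected probes of under 35% GC, 0.22 for 35 to 40% and -0.11 for 60% and above. The 10 detected heat shock probes that were above their mean on replicate 3 had a median GC content of 37.5%, and the 6 below it 43.3%. After quantile normalization with the mean of each GC class taken off, the mean deviation of the inducible genes on replicate 3 was -0.043. Both this setting and quantile normalization use complete probes only, so the value to set beside it is the 0.20 of complete probes, and quantile normalization without the GC step already gave 0.053. HSPH1, HSP90AA1 and HSPA1B were then within 0.05 of their mean and DNAJB1 at 0.08. HSPB1 kept 0.31 and BAG3 -0.70.

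**Figure D5:**
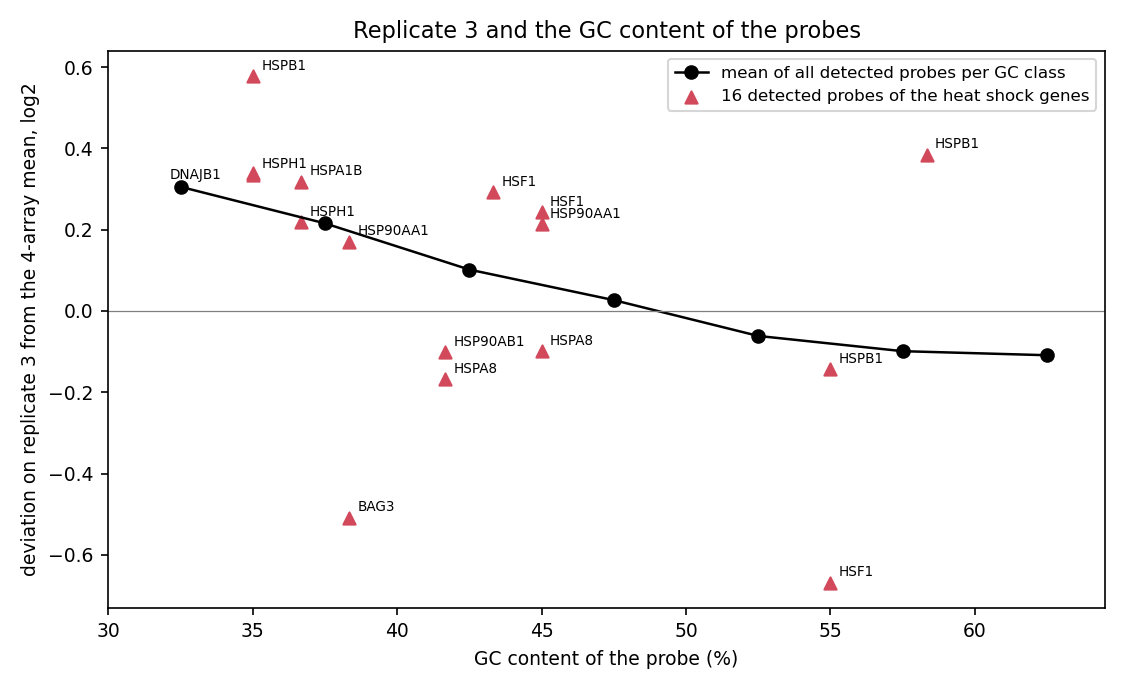
Deviation on replicate 3 from the 4-array mean (log2, vertical axis) against the GC content of the probe (percent, horizontal axis). Black points are means over all detected probes per GC class, and triangles are the 16 detected heat shock probes. The black line falls from 0.31 to -0.11, BAG3, at 38.3% GC and -0.51, lies far below it, and the 2 HSPB1 probes of the 3′ end lie above it.

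The 5 genes on the array whose 4 deviations lay nearest to the mean of the inducible genes, by Euclidean distance over the 4 arrays, were IFT80, RET, MTMR4, PCM1 and 1 probe without a gene name, at distances of 0.01 to 0.02. None of the 4 named genes is a chaperone, and the mean they were set against contains HSP90AA1 with its change of probes. Of the 19074 other detected genes 858 lay within 0.1 of it, and how many lie that close to other patterns was not computed.

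Among 98 further chaperone and stress genes found on the array, in 10 lists, 81 were detected (82.7%), against 52.5% of all gene names. Of these 81, 38 (46.9%) spanned more than 1.4-fold, a share close to the 46.4% of all detected genes. In the HSF family, HSF2, HSF4 and the HSF1 inhibitor HSBP1 were detected, with SDs of 0.17 for HSBP1 to 0.20 for HSF4, HSFX1 was above background on 1 array and HSF5 and HSF2BP on none. Of 8 other HSP70 and HSP110 genes 5 were detected, from HSPA2 (SD 0.09) to HSPA6 (SD 0.28). HSPA6, a strictly inducible HSP70 of human cells, was read at -1.53 ± 0.28 (SD, n = 4), detected by 1 of its 3 probes. HSPA1L and HSPA12B were above background on no array. For the J-domain proteins 18 of 23 were detected, with DNAJC5 the steadiest (SD 0.07), and DNAJB3 and DNAJB7 were above background on no array. Among 10 other small heat shock proteins 6 were detected and HSPB2, HSPB3, HSPB7 and ODF1 were not on any array, and HSPB9 varied least, with an SD of 0.09.

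Of the other genes that exchange nucleotide or act beside BAG3 on HSP70, 6 of 7 were detected, with SDs from 0.08 for HSPBP1 to 0.23 for BAG1, and BAG2 was detected on 3 arrays. For the co-chaperones of HSP90, 16 of 17 were detected, against 52.5% of all gene names. Of these 16, 12 spanned more than 1.4-fold, against 46.4% of all detected genes. With only complete probes it was 11, against 42.9%. The least variable was STUB1 (SD 0.13), the ubiquitin ligase that works with both chaperones. TTC4 varied most, at 2.99, 3.24, 1.94 and 2.68, with replicate 3 the lowest as in BAG3. All 9 genes of the CCT chaperonin, all 6 prefoldin genes and all 10 mitochondrial chaperones were detected, with median SDs of 0.21, 0.18 and 0.14. CCT4 (SD 0.11), PFDN2 (SD 0.15) and CLPX (SD 0.08) varied least in these lists and CCT3, PFDN4 (SD 0.27) and TRAP1 (SD 0.65) most. TRAP1, the mitochondrial HSP90, was at 5.37, 5.68, 4.19 and 4.86, with replicate 2 the highest and replicate 3 the lowest. Of all detected probes 25.1% were highest on replicate 2 and 23.5% lowest on replicate 3.

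In 4 of these lists the gene with the highest SD had, like HSP90AA1 and HSP90AB1, a number of probes with a value that differed between arrays. CCT3 read 3.38, 3.50, 9.35 and 3.47, with 2 probes on replicates 1, 2 and 4 and 1 on replicate 3, and its SD of 2.95 was 0.07 with only complete probes. In DNAJC27, likewise with 1 of 2 probes on replicate 3, the SD went from 0.87 to 0.19. HSPB11 had 2, 2, 3 and 2 probes with a value, with replicate 3 the lowest, and its SD went from 1.89 to 0.72. In BAG1, with 2 of 3 probes on replicate 3, it went from 0.23 to 0.11.

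The binding site of HSF1, the heat shock element, is built of 5-base units NGAAN in alternating orientation. A search for 3 adjoining units, in either orientation of the first, was run in the RefSeq promoter windows of GRCh38.p14, which reach from 250 bases before to 50 after each annotated start. It matched 172 of 35116 windows (0.490%). All heat shock genes but HSF1 have a window, 14 windows for 9 genes. HSPA8 held 2 matches, HSP90AB1 held 2 in 1 of its 3 windows and HSP90AA1 held 1 in 1 of its 2 windows. Both constitutive genes were thus among the 3 of 9 heat shock genes with a match, against 166 of all 27305 genes (0.608%). With 2 adjoining units, found in 13.5% of all windows and 16.2% of all genes, 7 of the 9 genes had a match. Matches were then also present in HSPA1A, HSPA1B, HSPB1 and DNAJB1, and in 8 of the 14 windows. HSPH1 and BAG3 held neither. Only exact, adjoining units inside these windows were searched, so the lack of a match does not show the lack of an element. A 3-unit match contains 2-unit matches. A match of letters is not a bound site, and these arrays hold no measurement of binding.

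The stretches before the start are shown for the genes with a match, with 3-unit matches in capitals in HSPA8 and HSP90AB1 and 2-unit matches, some overlapping into 3 units, in capitals in the others. Each ends at the last base before the annotated start.
HSPA8, chr11:123062137-123062386 (GRCh38.p14, minus strand): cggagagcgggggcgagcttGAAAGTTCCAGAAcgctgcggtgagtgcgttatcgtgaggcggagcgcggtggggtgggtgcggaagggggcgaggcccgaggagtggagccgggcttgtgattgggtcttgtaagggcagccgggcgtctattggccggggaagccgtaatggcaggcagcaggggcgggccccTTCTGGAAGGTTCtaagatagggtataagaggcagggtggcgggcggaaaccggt
HSP90AB1, chr6:44247763-44247942 (GRCh38.p14, plus strand): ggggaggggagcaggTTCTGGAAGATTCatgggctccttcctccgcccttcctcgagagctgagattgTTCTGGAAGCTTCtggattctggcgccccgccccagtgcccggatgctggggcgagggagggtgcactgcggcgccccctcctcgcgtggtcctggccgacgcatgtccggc
HSP90AA1, chr14:102087045-102087174 (GRCh38.p14, minus strand): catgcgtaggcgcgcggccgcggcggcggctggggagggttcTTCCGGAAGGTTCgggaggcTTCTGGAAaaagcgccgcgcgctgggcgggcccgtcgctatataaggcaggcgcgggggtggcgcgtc
DNAJB1, chr19:14518398-14518527 (GRCh38.p14, minus strand): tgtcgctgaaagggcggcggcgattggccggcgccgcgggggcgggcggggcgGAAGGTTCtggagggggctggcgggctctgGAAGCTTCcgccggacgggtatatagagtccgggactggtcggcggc
HSPB1, chr7:76302473-76302672 (GRCh38.p14, plus strand): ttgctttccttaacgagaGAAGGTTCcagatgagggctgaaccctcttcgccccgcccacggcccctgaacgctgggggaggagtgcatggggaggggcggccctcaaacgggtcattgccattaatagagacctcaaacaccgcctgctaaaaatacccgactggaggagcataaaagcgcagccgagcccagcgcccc
HSPA1A, chr6:31815413-31815542 (GRCh38.p14, plus strand): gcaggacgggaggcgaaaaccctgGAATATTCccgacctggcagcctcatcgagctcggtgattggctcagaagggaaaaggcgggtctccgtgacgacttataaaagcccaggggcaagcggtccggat
HSPA1B, chr6:31827608-31827737 (GRCh38.p14, plus strand): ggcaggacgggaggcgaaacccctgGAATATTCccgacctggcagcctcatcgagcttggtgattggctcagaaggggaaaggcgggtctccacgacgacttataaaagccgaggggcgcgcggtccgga
HSPA1A and HSPA1B carry the same 2-unit match, at positions -106 and -105, and over the 250 bases before the start their promoters were identical at 235 of 249 aligned positions (94.4%, shifted by 1 base). The HSPB1 stretch contains the upstream probe described above.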

How the data were processed

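Gene expression was measured on 4 single-colour Agilent arrays, 1 per replicate. The deposited files are scanner output of Agilent Feature Extraction 10.7.3.1, with spot intensity on a linear scale from which the software had subtracted the local background. They hold no normalization between arrays. Probe coordinates are those of GRCh37 in these files.

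Control spots and spots marked as outliers were left out, the spots of a probe averaged, and signals at or below 0 left out of that array (no heat shock spot was among them). As in the methods, the signal was log2 transformed, centred on the array median and summarised per gene as the median of its probes. Detection of a probe required the flag for a signal well above background in over 50% of its spots. The medians taken off were 6.27, 6.13, 6.13 and 5.99 (log2), and 55.6% to 60.4% of the 58717 non-control spots were well above background. No spot was saturated (0 spots). The number of arrays limits the precision. With 1 group no test was made.

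The members, gene lists and groupings were chosen with earlier results of these data known. Named are all 10 members, per list the detected genes with the highest and lowest SD and up to 5 genes above background on no array, and the 5 genes nearest to the inducible mean. HSFX1, HSPA14, BAG2 and the genes of the marker lists were named beside them, as were all detected genes of the HSF family. Of 101 genes listed in 10 further lists, 98 were found by name, and the genes of 1 list are not reported here singly; HSFY1, HSPA7 and HSP90AA2P were not.

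As alternatives, the software's processed signal centred at the 75th percentile was used, normexp background correction with an offset of 50 (limma 3.58.1 in R 4.3.3) with quantile normalization, other rules for dim, incomplete or outlying probes, another centre, other detection rules, another grouping and each array left out in turn. Removal of the GC trend in classes of 5 percentage points, RefSeq-assigned probes alone counting HSPA1A in and the mean over probes for the deviations of single genes were added after seeing the data. A value was called moved when it changed by 1 SD over the arrays, or, for the median SD, by 1 SD of its values with each array left out, and a count when it changed by more than 1.5-fold. The statistics and the motif search were tested on simulated data. Python 3.11.15 with numpy 2.4.6, pandas 2.3.3 and matplotlib 3.10.9 was used.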

Additional observations from a re-analysis of the deposited data

Results flagged for a closer look

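Of 52 sets of 4 replicate values examined for 1 array apart from the rest, by Dixon's ratio of the gap to the range, 6 stood out, where chance gives about 5% of sets. The 52 include 26 genes picked for the highest or lowest SD of their list on these same arrays, CCT3 and DNAJC27 among them. The 5% may not apply to sets picked in this way. The 6 were also not independent, since replicate 3 was the array apart in all 6 and gene lists share these genes. Among all detected genes 1 array stood apart in 8.48%, and among the 9 detected heat shock genes in 2. DNAJB1 had a ratio of 0.935, with 6.20 on replicate 3 and 5.73 to 5.76 on the others. HSP90AA1 had 0.873, with 9.98 on replicate 3 and 8.77 to 8.93 on the others, and 0.561 with only complete probes. The mean deviation of the 6 detected inducible genes had 0.849, with 0.31 on replicate 3 and -0.13 to -0.07 on the others, and 0.761 with only complete probes, below the critical value. CCT3 had 0.979 and the mean of the CCT chaperonin list, which contains it, 0.842, and DNAJC27 had 0.897; in CCT3 and DNAJC27 1 of 2 probes had no value on replicate 3.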

How the results depend on the processing

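No paired analysis was possible because only the bafilomycin A1 group was analysed, so no groups shared replicate numbers. The median SD over the 10 heat shock genes, 0.26, was 0.14 after normexp and quantile normalization and 0.11 with the GC trend also taken off (both of which use only complete probes), where the median over all detected genes was 0.11 in both, and it ranged from 0.14 to 0.32 with 1 array left out. The 8 genes spanning more than 1.4-fold became 5 for the software's processed signal (39.1% of detected genes), 2 after quantile normalization (14.1%) and 3 with the GC trend taken off (11.2%), and 2 to 7 with 1 array left out. Without replicate 3 this count was 2, against 21.9% of all genes detected on the remaining arrays, and the median SD 0.14, against 0.15; without 1 of the others the share of all genes was 37.7% to 39.5%. The mean deviation of the inducible genes on replicate 3, 0.31, was 0.20 with only complete probes, 0.053 after quantile normalization and -0.043 with the GC trend taken off. That of the constitutive genes, 0.27 on the same array, was -0.18 and -0.20 under the last 2, -0.12 with only probes well above background on every array, -0.13 with only complete probes and -0.20 with outlier spots kept, and on replicate 4 it went from -0.33 to -0.049 and -0.047 under the normalizations. The difference of the classes on replicate 3, 0.04, was 0.23 after quantile normalization and 0.32 with only probes well above background. With only complete probes it was 0.33 and with outlier spots kept 0.41. It was -0.38 with HSP90AA1 and HSPB1 counted as constitutive, which also moved it on replicate 2 from -0.23 to 0.11. That grouping was computed at the reported levels only, which hold the change of probes in HSP90AA1 and HSP90AB1. Detection of 9 members gave 9 to 10 with 1 array left out, and the 10, without replicate 4, include HSPA1A. It gave 10 with the weaker flag for a positive and significant signal. With every probe of a gene required it gave 6, which lies at the 1.5-fold limit and was not called moved. For these last 2 rules the share of all gene names was not computed. With 1 array left out, 19156 to 19667 of the 36337 gene names were detected. Members with a match in a promoter window numbered 3 of 9 with 3 units, against 0.608% of all genes, and 7 of 9 with 2 units, against 16.2%. In all, 148 values of these results under alternatives stayed within the limits set, the detection counts among them, and 23 moved. The 148 are not all separate checks. Another centre of the array cancels in the difference of the classes and cannot move it. The rules for dim and for incomplete probes gave the same inducible means. Of the gene levels under alternatives, 87 stayed within the limits and 42 moved. Among those that moved were all 10 with another centre of the array and all 10 with the processed signal. The limits are 4 arrays of 1 treated group, no untreated values, a single probe for 4 genes, and signals of HSPA1A at the edge of detection.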
